A study of Mus musculus with 5 samples.

Results

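The genes described are 49 writers, erasers, readers and remodellers of chromatin: DNA methyltransferases and TET enzymes, both Polycomb complexes, enzymes that methylate, demethylate, acetylate or deacetylate histones, and ATP-dependent remodellers. They were listed by name, and each was represented by its brightest probe set, the one with the highest mean signal over 5 arrays among probe sets annotated to 1 gene symbol. All 49 had one, of 18193 genes in all. The cells compared were G9C8 clone, a CD8 T cell clone kept in culture (3 separately frozen vials), and spleen cells of NOD.G9C8 transgenic mice aged 4 to 8 weeks (2 mice, NOD/LtJ background). Both groups had the same culture, which was insulin B peptide at 10 µg/ml over 3 days followed by rest in 5 IU/ml of IL2 over 2 days. The vials come from 1 clone, each vial and each mouse gave 1 one-colour Affymetrix array, and the number of arrays limits the precision. No sorting step before RNA extraction is named. Differences are clone minus transgenic on the log2(signal + 20) scale, and signals are linear array units.

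DNA methyltransferases add methyl groups to cytosine and TET dioxygenases oxidise them, while histone methyltransferases and acetyltransferases write marks that demethylases and deacetylases remove. Polycomb repressive complex 2 (PRC2) methylates histone H3, and the chromobox proteins of Polycomb repressive complex 1 (PRC1) bind that mark. In CD8 T cells these enzymes are known for setting which naive, effector and memory genes stay accessible after activation. The comparison asks how their transcripts differ between a long-term cytotoxic clone and freshly activated cells bearing the receptor of that clone.

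The histone demethylase gene Kdm5b was 5.13-fold lower in clone on the pseudocounted scale, Hdac4, Ezh1, Kdm3a and Kdm6b were about 2-fold lower, and the remodelling ATPase gene Smarca4 was about 2-fold higher. In these bulk samples fewer cells of a type and less RNA per cell cannot be told apart. Of the 49 genes, 47 passed the filter on dim probe sets (a mean signal of at least 88.2), and 46 of these had both group means above that level, Tet3 being the exception. In limma with Benjamini-Hochberg adjustment over 12446 genes, 9 were called higher and 11 lower in clone at an adjusted p under 0.05, and 27 were not called. That is 42.6% of the 47, against 43.8% of all genes tested (22.0% higher and 21.7% lower), so the share of calls was near the background. Clone and transgenic arrays did not overlap for 32 of the 47, against 64.5% of all genes tested. A called difference of at least 1 was found for 6 of the 47, against 14.7% of all genes tested, and 5 of those 6 were lower in clone; among all genes tested 851 such differences were positive and 984 negative. Without the first transgenic array the higher calls numbered 4, and without the second the lower calls numbered 7.

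By class, the 21 writers tested included 4 higher and 5 lower genes, with a median difference of -0.01. Among the 18 erasers 2 (Hdac1 and Hdac5) were higher and 5 lower, or 38.9% called against 43.8% of all genes tested, with a median of -0.19, and all 4 called eraser differences of at least 1 were negative. The 4 remodellers had 1 higher and 1 lower member and a median of 0.23, and the 4 PRC1 genes had 2 higher and none lower, with a median of 0.13. The median over all genes tested was -0.01. The median of the writers changed sign without clone array 2 (0.08), clone array 3 (0.05) or transgenic array 2 (0.09). Whether the classes differ from one another was not tested.

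**Figure D1:**
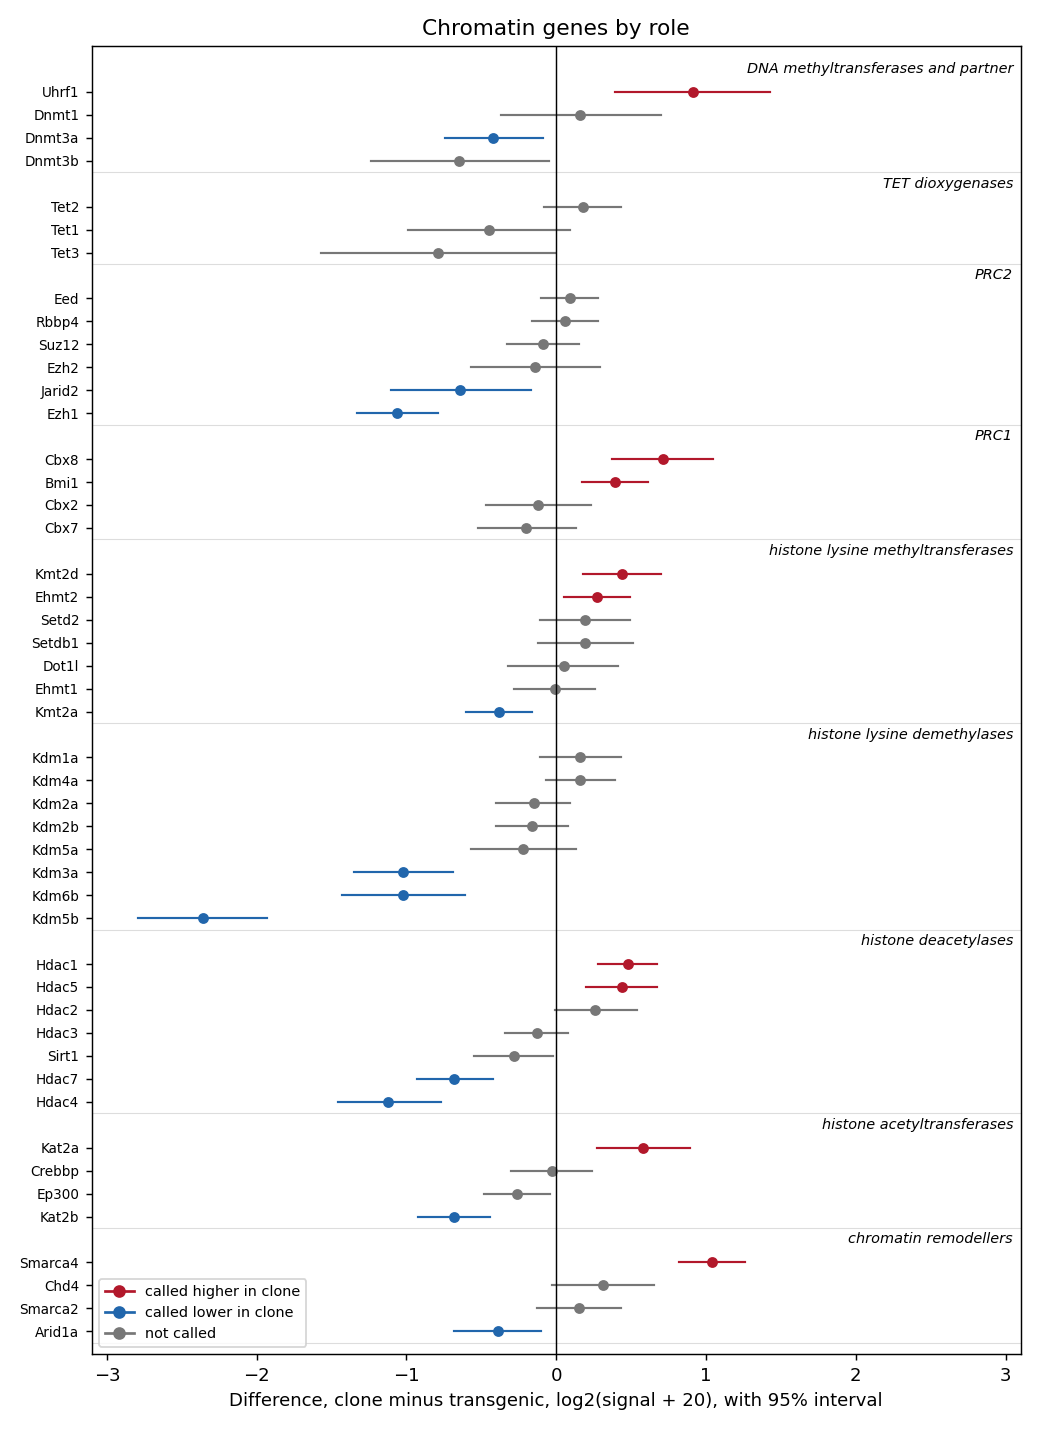
Difference between clone and transgenic cells for the 47 genes tested, grouped by role, on the log2(signal + 20) scale (horizontal axis). Points are limma estimates from 3 clone and 2 transgenic arrays and lines their 95% confidence intervals. The 4 erasers Kdm5b, Hdac4, Kdm6b and Kdm3a and the PRC2 gene Ezh1 lie at or below -1, and Smarca4 alone lies above 1.

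Among the DNA methyltransferases and their partner, Uhrf1 was called higher and Dnmt3a lower in clone. Uhrf1, whose product recruits the maintenance methyltransferase to hemimethylated DNA after replication, had signals of 1926, 1094 and 1799 on the clone arrays and of 751 and 897 on the transgenic arrays. The groups did not overlap, although the second clone array was far below the other clone arrays (difference 0.91, SE 0.23, adjusted p = 0.0112). The call did not hold without the first transgenic array (0.79, adjusted p = 0.0859), and the other probe set of Uhrf1 was higher too (1.18). Dnmt1, the maintenance methyltransferase itself, gave 2959, 1583 and 2611 in clone and 1892 and 2233 in transgenic cells. Its groups overlapped because of the second clone array (0.16, 95% confidence interval -0.37 to 0.70, adjusted p = 0.608). Without that array its difference was 0.43 and passed (adjusted p = 0.0184), and its dimmer probe sets gave 0.62 and 0.88.

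Dnmt3a, a de novo methyltransferase that acts in effector T cells, was lower in clone, at 460.5, 391 and 487.5 against 613 and 588 in transgenic cells. Every clone array lay below both transgenic arrays (difference -0.42, SE 0.14, adjusted p = 0.0422). This call was marginal: it did not hold without the first clone (adjusted p = 0.0693), the second clone (0.0828), the first transgenic (0.192) or the second transgenic array (0.134). None of the dimmer Dnmt3a probe sets was called, and the brightest of these had the opposite sign (0.45). With the mean over probe sets the Dnmt3a difference was -0.31 (limma adjusted p = 0.177). Dnmt3b, the other de novo enzyme, gave 124.5, 157.7 and 229.6 in clone and 236.1 and 309.7 in transgenic cells. The gap between the groups was only a few units. It did not pass (-0.65, interval -1.24 to -0.05, adjusted p = 0.0782), but did without the third clone array (-0.86, adjusted p = 0.0243). Its dimmer probe set, tested among all probe sets, was lower in clone (-1.37, adjusted p = 0.00102).

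None of the 3 TET genes was called. Tet2, the brightest probe set of the family and the member best known in CD8 T cell memory, gave 1380.2, 1426 and 1650.5 in clone and 1312 and 1305 in transgenic cells. The clone arrays were all slightly above the transgenic ones (0.18, interval -0.08 to 0.43, adjusted p = 0.236). Tet3 gave 42.7, 84.5 and 110.8 in clone and 145.6 and 143.1 in transgenic cells (-0.79, interval -1.57 to -0.01, adjusted p = 0.0948). Without the third clone array its difference was -1.02 (adjusted p = 0.0461). Tet1 was also dim, with 90.8, 99.1 and 119.6 in clone against 137.7 and 157.8 in transgenic cells (-0.45, interval -0.99 to 0.09, adjusted p = 0.161). With the mean over its probe sets it was called lower (-0.61, adjusted p = 0.0184), and another Tet1 probe set, below the filter level on average, gave 7.8, 23.0 and 17.4 in clone and 191.1 and 148.9 in transgenic cells. Tet1 and Tet3 lay near the filter level, where the pseudocount understates differences.

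Within PRC2 the alternative catalytic subunit Ezh1 was lower in clone, whereas Ezh2 and the core subunits were not called. Ezh1, the methyltransferase subunit typical of resting cells, gave 972, 983 and 828 in clone and 2032 and 1872 in transgenic cells. Every clone array lay far below both transgenic arrays (-1.06, SE 0.12, adjusted p = 0.000162, 2.09-fold on the pseudocounted scale). A dimmer Ezh1 probe set fell short of a call (-0.35), and with the mean over all Ezh1 probe sets the difference was -0.38 (adjusted p = 0.219). That mean includes probe sets below the filter level on average (0.37 and -0.49). Ezh2, the subunit of dividing cells, gave 2794.5, 1746 and 2704 in clone and 2632 and 2574 in transgenic cells. Again the second clone array was low while the other 2 lay just above the transgenic arrays (-0.14, interval -0.57 to 0.29, adjusted p = 0.587). Jarid2, an accessory protein that helps place PRC2 on DNA, was lower in clone (-0.64, adjusted p = 0.0331), with 656 to 771 in clone and 864.5 and 1464 in transgenic cells. The transgenic arrays of Jarid2 disagreed, and without the second of them the difference was -0.26 (adjusted p = 0.28); the call also did not hold without the first (0.0913), the second (0.0504) or the third clone array (0.0508). Both other Jarid2 probe sets were lower in clone (-0.67 and -1.47). The core subunits Eed (0.09), Suz12 (-0.09) and Rbbp4 (0.06) were not called, with intervals within -0.33 and 0.28. Dimmer probe sets went either way, with 2 of Suz12 called higher (1.34 and 1.09) and 1 of Rbbp4 called lower (-0.63). Those 2 Suz12 probe sets lay below the filter level on both transgenic arrays, at 64.8 and 85.3 and at 40.8 and 55.6.

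Dnmt1, Uhrf1 and Ezh2 shared a low value on the second clone array with cell division genes. In all 27 cell division genes tested that array was lower than the average of clone arrays 1 and 3, with a median of -0.72. Among the 47 chromatin genes tested, Dnmt1 (-0.80), Uhrf1 (-0.76) and Ezh2 (-0.65) were the ones at least 0.5 lower on it. They are 3 of 47 (6.38%), against 6.34% of all genes tested and 24 of the 27 cell division genes. The histone H3 methyltransferase gene Suv39h2, too dim to be tested, gave 168.1, 25.5 and 95.3 in clone and 40.1 and 89.4 in transgenic cells, also with its lowest clone value on the second array. In the comparison of clone with transgenic cells 11 of the 27 cell division genes were called higher and none lower, with a median of 0.47. Their summed signal was 85594, 54334 and 84340 in clone and 51712 and 57669 in transgenic cells. The part of cell division in the differences of Uhrf1 and Dnmt1 was not tested.

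**Figure D2:**
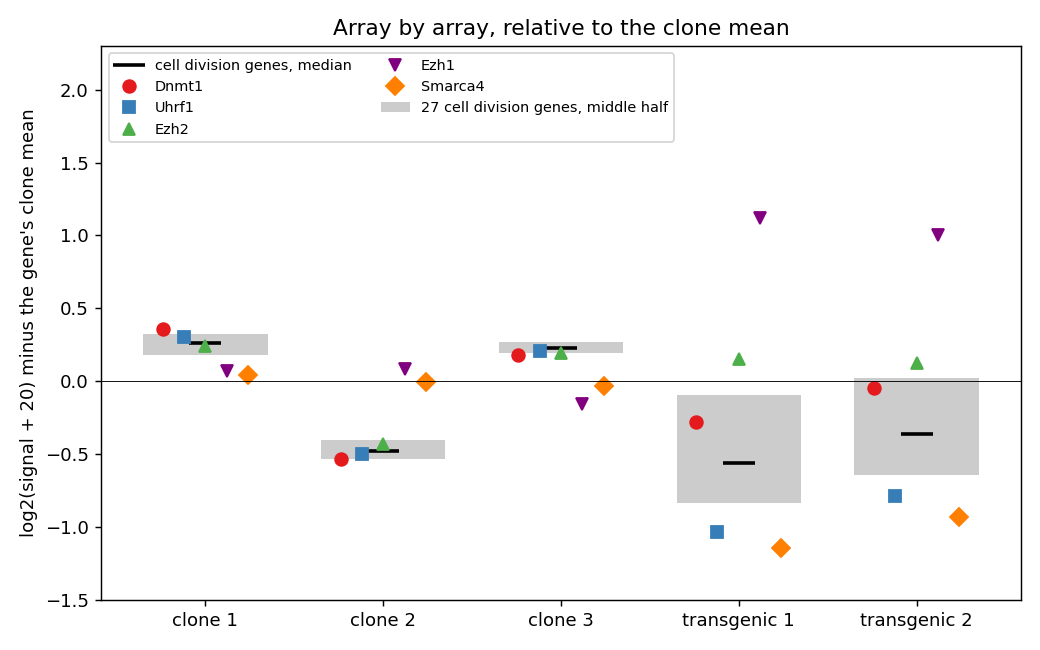
Values of 5 chromatin genes on each array, as log2(signal + 20) minus the mean of that gene over the clone arrays. Grey boxes span the interquartile range of 27 cell division genes and black bars mark their median. On the second clone array Dnmt1, Uhrf1 and Ezh2 sit with the cell division genes at about -0.5, whereas Ezh1 and Smarca4 stay near 0.

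E2F factors drive many genes of DNA replication, and their binding motif was searched in windows of 300 bases, 250 before to 50 after each start site (RefSeq, GRCm38.p6). The motifs TTTCGCGC, TTTGGCGC and TTTCCCGC were read on both strands. Of the 49 genes 43 have windows there, 62 in all, and windows of 5 genes hold a match: Arid1a, Dnmt1, Ezh2, Suz12 and Uhrf1. That is 8.06% of windows, against 1.84% of 32851 windows of all genes. Windows of the chromatin genes were also richer in G and C than those of all genes (medians 67.6% and 52.4% over the upstream bases), and no adjustment was made for this. The 3 genes that were low on the second clone array are all among those 5. Whether the motif bears on those values was not tested. The matched stretches are shown 5′ to 3′ on the strand of the gene, with the matched letters in capitals. The stretches lie at chr17:56304102-56304161 (+, Uhrf1), chr9:20952809-20952868 (-, Dnmt1), chr6:47595009-47595038 (-, Ezh2), chr11:79992861-79992920 (+, Suz12) and chr4:133754007-133754066 (-, Arid1a). A match in Dnmt1 is on the opposite strand and so reads GCGCGAAA; that window holds another match after the start site, which is not shown.
Uhrf1: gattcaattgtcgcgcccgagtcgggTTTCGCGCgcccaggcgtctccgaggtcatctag
Dnmt1: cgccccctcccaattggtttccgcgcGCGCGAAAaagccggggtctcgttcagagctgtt
Ezh2: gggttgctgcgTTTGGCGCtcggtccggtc
Suz12: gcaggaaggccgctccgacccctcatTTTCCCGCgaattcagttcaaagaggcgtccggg
Arid1a: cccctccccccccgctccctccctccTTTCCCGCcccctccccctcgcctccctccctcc

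Suz12 (-0.21) and Arid1a (0.28), which hold TTTCCCGC, did not show the drop on the second clone array. TTTGAA, the letters of the CHR element of mitotic genes, lay in windows of 8 of the 43 genes, or 12.9% of their windows against 17.9% of all windows. A match describes letters and not a bound site.

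Of the 4 PRC1 genes in the main list, Bmi1 and Cbx8 were called higher in clone on their brightest probe sets. Bmi1, the RING finger partner of the ubiquitin ligase, had 1633, 1547 and 1709 units in clone and 1253 and 1224 in transgenic cells (0.39, SE 0.10, adjusted p = 0.0119). Its second probe set moved in the opposite direction and was called (-0.51, adjusted p = 0.0112), so the direction of Bmi1 depends on the probe set. The Bmi1 call also did not hold without the first (0.0603) or second transgenic array (0.0748). Cbx8, a chromobox reader of the Polycomb mark, was higher in clone at 476 to 577.5 against 292 and 325.5 in transgenic cells (0.71, adjusted p = 0.00487). The mean over its probe sets did not pass (0.44, adjusted p = 0.0603). Its other probe set lay below the filter level on all arrays, at 48.2 to 77.9 in clone and 51.7 and 60.3 in transgenic cells. The chromobox genes Cbx2 (-0.12) and Cbx7 (-0.20) were not called.

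The 7 histone lysine methyltransferase genes tested outside PRC2 differed by less than 0.5 on the log2 scale. Kmt2d, which marks enhancers, was higher in clone (0.44, adjusted p = 0.0139), and Kmt2a, the MLL gene that marks promoters, was lower (-0.38, adjusted p = 0.0116). Without the first transgenic array neither passed (adjusted p = 0.121 for Kmt2d and 0.0621 for Kmt2a), nor did Kmt2a without the second (0.0751). With the mean over probe sets Kmt2d had the opposite sign (-0.32, adjusted p = 0.214). Its only other probe set lay below the filter level on average, at 21.9, 36.3 and 54.6 in clone and 155.4 and 60.7 in transgenic cells. Ehmt2, encoding the repressive methyltransferase G9a, was just called (0.27, adjusted p = 0.0478), and without the first transgenic array its adjusted p was 0.33, and without clone arrays 1, 2 and 3 it was 0.114, 0.0702 and 0.0676. Its dimerisation partner Ehmt1 (-0.01), the other repressive enzyme Setdb1 (0.19), Setd2, which marks transcribed gene bodies (0.19), and Dot1l (0.05) were not called.

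Histone demethylases held the largest difference among the chromatin genes. Kdm5b, which removes the active promoter mark from histone H3, gave 117, 146.5 and 102 in clone and 716 and 689 in transgenic cells. All clone arrays lay close to the filter level and far below both transgenic arrays (-2.36, SE 0.19, adjusted p = 3.13e-05, 5.13-fold on the pseudocounted scale). The second Kdm5b probe set above the filter level on average was lower as well (-1.39). It gave 116.1, 75.5 and 44.1 in clone and 243.2 and 210.3 in transgenic cells, so it passed that level through the transgenic arrays. Under the alternatives tried the difference of Kdm5b ranged from -2.53 to -1.80. Kdm5a, its close relative, was not called (-0.22, interval -0.57 to 0.13), although 2 of its dimmer probe sets were called lower (-0.51 and -0.66).

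Kdm3a and Kdm6b were each about 2-fold lower in clone. Kdm3a, which removes a repressive H3 mark and is known as a hypoxia-induced gene, gave 1494, 1298 and 1056 in clone and 2698 and 2511 in transgenic cells (-1.02, SE 0.14, adjusted p = 0.00065, 2.03-fold). It has 1 probe set, and the groups were well apart. Kdm6b, which erases the Polycomb mark and is induced on T cell activation, gave 459, 454 and 315 in clone and 800.1 and 878 in transgenic cells (-1.02, SE 0.18, adjusted p = 0.00208). A second Kdm6b probe set had the same difference (-1.02), while the last, of the _x_at type that may cross-hybridize, was called in the opposite direction (1.71). That last probe set gave 255.2, 249.1 and 132.7 in clone and 32.8 and 69.5 in transgenic cells, so it passed the filter level through the clone arrays. The mean over all Kdm6b probe sets was -0.11 (adjusted p = 0.71). The demethylase genes Kdm1a (0.16), Kdm2a (-0.15), Kdm2b (-0.16) and Kdm4a (0.16) were not called, and Kdm2a had dimmer probe sets called lower (-0.69) and higher (0.91). The Kdm2a probe set called higher gave 195.6, 104.3 and 141.8 in clone and only 88.7 and 49.4 in transgenic cells.

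**Figure D3:**
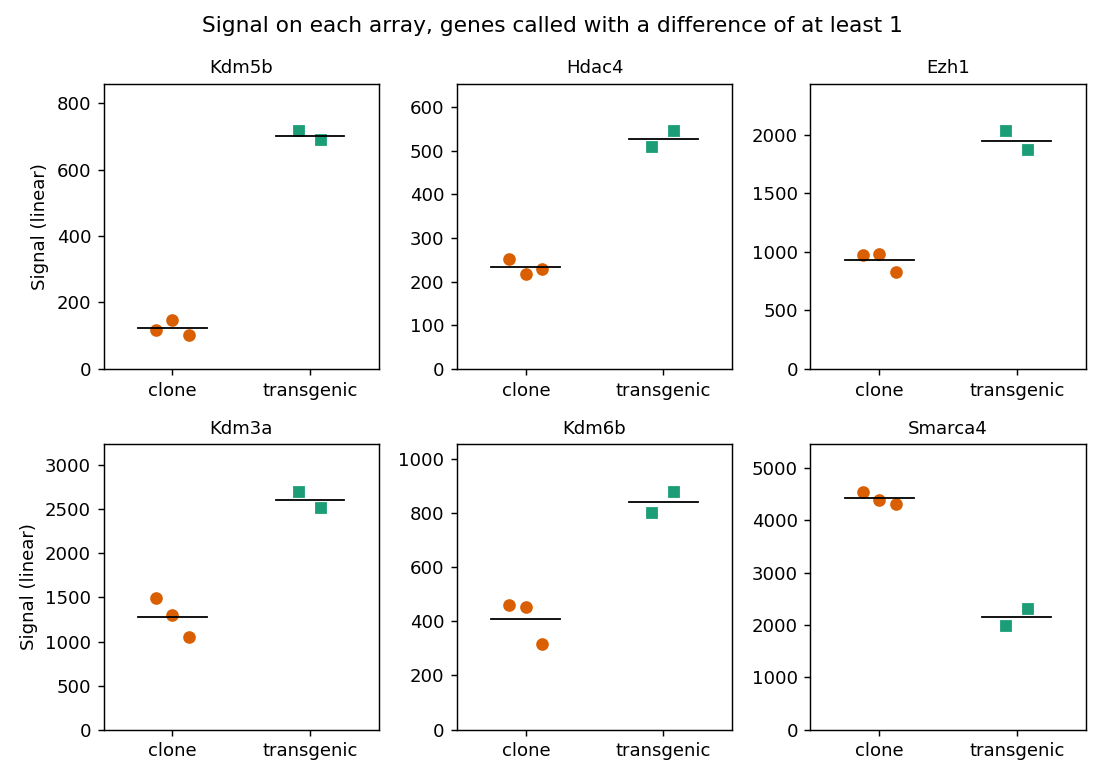
Linear signal on each array for the 6 chromatin genes called with a difference of at least 1, clone arrays (circles, n = 3) left and transgenic arrays (squares, n = 2) right, with group means as bars. Within each gene the groups do not overlap; Kdm5b lies between 102 and 146.5 in clone, against 689 and 716 in transgenic cells.

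Of the 7 deacetylase genes tested, Hdac1 and Hdac5 were called higher and Hdac4 and Hdac7 lower in clone. Hdac1, a ubiquitous class I enzyme of corepressor complexes, was higher in clone at 4899 to 5194 against 3435 and 3744 in transgenic cells (0.48, adjusted p = 0.00226). Hdac2 (0.26) and Hdac3 (-0.13) were not called, although Hdac2 passed without the second clone array (0.36, adjusted p = 0.019) and its second probe set was higher (0.60). Among the signal-regulated class IIa enzymes, Hdac4 gave 252, 217 and 229 in clone and 509 and 545 in transgenic cells. Every Hdac4 array of clone was below every transgenic one (-1.12, SE 0.15, adjusted p = 0.000536), and both other probe sets were lower (-1.25 and -1.72). Hdac7, known for its role in thymocytes and cytotoxic T cells, was lower too (-0.68, adjusted p = 0.00145), with 1785 to 2172 in clone against 3312 and 2968. Hdac5 of the same class was higher in clone (0.44, adjusted p = 0.0087), but not without the second transgenic array (adjusted p = 0.0695). Hdac9 stayed dim, at 18.3 to 39.2 in clone and 12.3 and 2.0 in transgenic cells, and was not tested; without the filter its adjusted p was 0.0489. The NAD-dependent deacetylase gene Sirt1 was not called (-0.28, adjusted p = 0.0826), although it passed without the first clone array (-0.36, adjusted p = 0.0437).

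The paralogous acetyltransferases Kat2a and Kat2b, which share a place in coactivator complexes, moved apart. Kat2b gave 2003, 2126 and 1792 in clone and 3276 and 3059 in transgenic cells, without overlap (-0.68, SE 0.10, adjusted p = 0.000981), and its other probe sets were lower (-0.91 and -1.60). Kat2a was higher in clone, at 1018 to 1073 against 597 and 785 (0.58, adjusted p = 0.00824), except without the first transgenic array (0.39, adjusted p = 0.0821). One of the 2 dimmer Kat2a probe sets was higher (0.66) and the other was not called (0.01). The coactivators Ep300 (-0.26, adjusted p = 0.0613) and Crebbp (-0.03) were not called; Crebbp too had dimmer probe sets called lower (-0.83) and higher (1.28).

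Smarca4, the BRG1 ATPase of the BAF remodelling complex, was the chromatin gene with the largest difference toward clone. It gave 4539.5, 4391 and 4318 in clone and 1983 and 2305 in transgenic cells. The groups were apart by more than their own spread (1.04, SE 0.10, adjusted p = 6.17e-05), the second probe set gave 1.04 as well, and the alternatives ranged from 0.93 to 1.15. Its alternative ATPase Smarca2 was not called (0.15, interval -0.13 to 0.43). Arid1a, a DNA-binding subunit of that complex, was lower in clone (-0.39, adjusted p = 0.0377), with 1610.0 to 2073 in clone against 2206 and 2578.5 in transgenic cells. This call did not hold without clone array 1 (0.0865), clone array 3 (0.0997), transgenic array 1 (0.0562) or transgenic array 2 (0.246), although the other Arid1a probe set was lower (-0.67, adjusted p = 0.00123). Chd4, the ATPase of the NuRD complex, was not called on its brightest probe set (0.31, adjusted p = 0.126), and both dimmer ones were called higher (0.83 and 0.52).

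Paralogs were set side by side in 13 pairs, chosen after their values were seen. The difference between the 2 differences was 2.14 for Kdm5a minus Kdm5b, -1.55 for Hdac4 minus Hdac5, 1.26 for Kat2a minus Kat2b, -0.92 for Ezh1 minus Ezh2 and 0.89 for Smarca4 minus Smarca2. In 10 of the 13 pairs the within-array log ratio of the clone arrays did not overlap that of the transgenic arrays; single genes did not overlap in 64.5% of all genes tested, and the pairs were picked by hand. With 5 arrays the exact two-sided permutation test cannot go below p = 0.1. The lowest p of that test adjusted over the 13 pairs was 0.186, and the test decides nothing about the pairs.

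**Figure D4:**
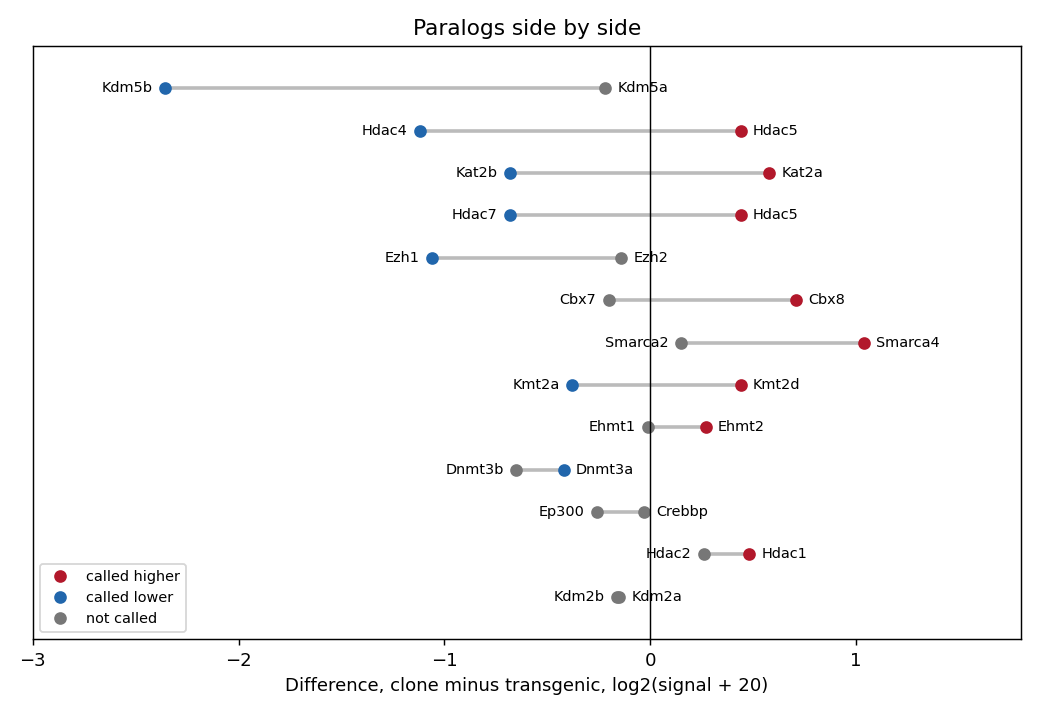
Differences between clone and transgenic cells for 13 pairs of paralogous chromatin genes, on the log2(signal + 20) scale (horizontal axis), with each pair joined by a line and coloured by the limma call. The widest gap is that of Kdm5b (-2.36) and Kdm5a (-0.22). Hdac4 with Hdac5, Hdac7 with Hdac5, Kat2b with Kat2a and Kmt2a with Kmt2d lie on opposite sides of 0. So do Cbx7 (-0.20) with Cbx8 (0.71) and Ehmt1 (-0.01) with Ehmt2 (0.27).

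**Figure D5:**
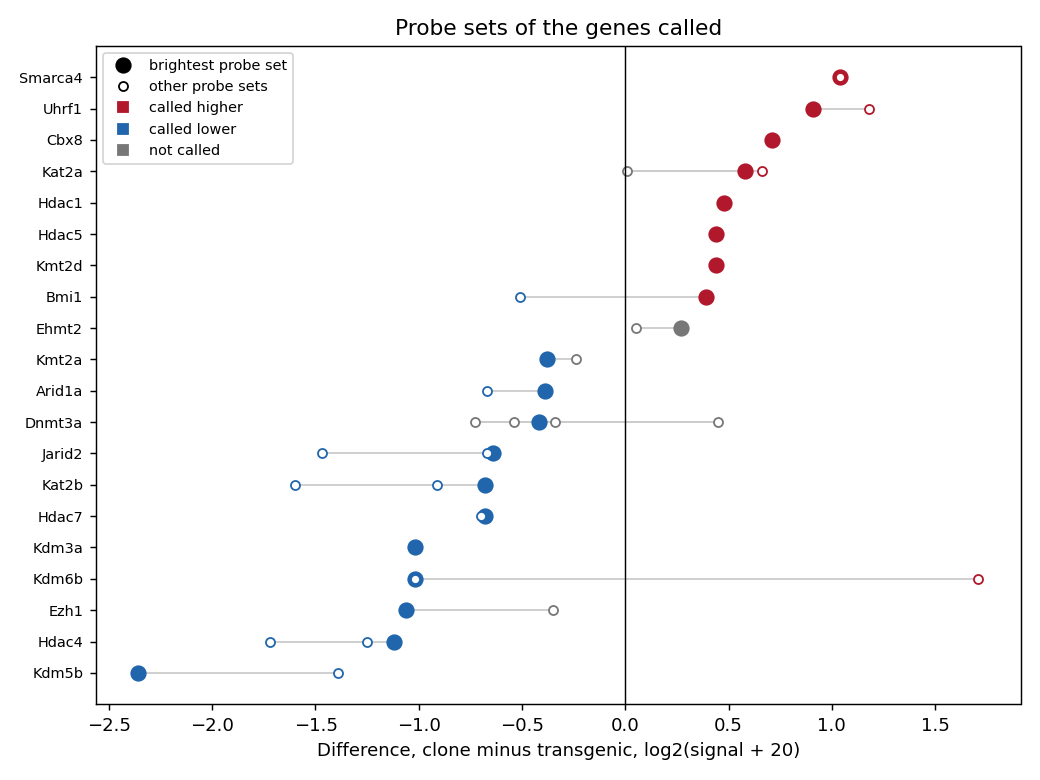
Differences of each probe set at or above the filter level for the 20 genes called, brightest probe sets as filled and others as open circles, coloured by a test across all such probe sets. Bmi1 and Kdm6b have probe sets called in both directions; the brightest Ehmt2 probe set, called in the test by gene, missed the threshold in this one (adjusted p = 0.0512).

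A wider list of 154 related chromatin genes, none of them among the 49, held 141 that were tested. Of these 34 were higher and 50 lower in clone (59.6% called, against 43.8% of all genes tested), with a median difference of -0.08. Without the first transgenic array 21 were higher and 33 lower. Toward clone the largest differences were those of Zbtb38, a zinc finger protein that binds methylated DNA (3.26), the lysine methyltransferase gene Smyd2 (2.13), the tubulin deacetylase gene Hdac6 (1.11), the arginine methyltransferase gene Prmt1 (1.10) and the BAF subunit gene Smarcb1 (1.04). Toward transgenic cells they were those of the Y-linked demethylase relatives Uty (-4.84) and Kdm5d (-4.38), the PRC1 gene Pcgf5 (-2.39), the stress gene Gadd45b (-2.10) and the PRC1 ubiquitin ligase gene Rnf2 (-1.70). Adjusted p-values of these 10 genes were at most 0.000367 (limma). Uty and Kdm5d had 11.9 to 58.0 units in clone and 1075 to 1244 in transgenic cells, so that they passed the filter through the transgenic arrays and their differences are set against a clone signal below the filter level, and Xist, transcribed from an inactive X, had 13107 to 15093 in clone and 288 and 315 in transgenic cells. Y-linked Eif2s3y had 2.6 to 8.8 in clone and 2429 and 2310 in transgenic cells. The X-linked partners Kdm6a (0.13) and Kdm5c (0.52, adjusted p = 0.0684) were not called. Among other X-linked genes of the list, Hdac6 (1.11), Rbbp7 (0.88), Hdac8 (0.73) and Taf1 (0.36) were called higher. Zbtb33 (-0.47) and Atrx (-0.50) were called lower, and Phf8 (0.05) was not called. The labels do not give the sex of mice or clone. On Xist and the Y-linked genes the clone has the pattern of female cells and the transgenic cells that of male cells. A difference by sex therefore cannot be told apart from the group difference.

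CD8 T cell markers were bright in both groups. Several myeloid markers, the B cell marker Cd79b and the natural killer marker Eomes were higher in transgenic cultures than in clone. The 6 CD8 T cell markers with a probe set summed to 58000.0 to 67208 units in clone and to 80819 and 71426 in transgenic cells, and Cd8a itself was lower in clone (-0.68, limma adjusted p = 0.000865). Of 10 myeloid markers 7 were lower in clone and 1, Cst3, was higher (0.93), while Cd68 was not called (0.50) and Itgam was too dim to be tested. Their summed signal was 7405 to 8506 in clone and 9348 and 12285 in transgenic cells. Most of the clone sum was Cst3, at 5965 to 6651 in clone and 3382 and 3148 in transgenic cells. Lyz2 gave 237 to 327 in clone and 3497 and 5549 in transgenic cells. Cybb, Tyrobp and Cd14 lay below the filter level on all clone arrays. For 6 B cell markers the sums were 623 to 1032 in clone and 1428 and 1363 in transgenic cells. Cd79a and Blnk lay below the filter level on average. Cd79b gave 2.7 to 46.0 in clone, below that level, against 654.5 and 594 in transgenic cells. Of the 4 B cell markers tested only Cd79b was called, while Ms4a1 (-0.24), Cd22 (0.16) and Pax5 (0.16) were not. The 3 natural killer markers summed to between 192 and 230.0 in clone and to 1623 and 1758 in transgenic cells. Most of the transgenic sum was Eomes, which activated CD8 T cells also express. Ncr1 (means of 83.2 in clone and 66.8 in transgenic cells) and Klra8 (49.1 and 15.8) lay below the filter level. Neither was tested, and neither mean was lower in clone. The part of other cells in the lower clone signals of Kdm5b, Kdm6b, Kdm3a, Hdac4 and Ezh1 was not tested.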

How the data were processed

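The authors deposited intensity values, 1 linear signal per probe set; the submitters' processing notes name GCOS, the Affymetrix array software (version not given in the sources used here). Per the labels' protocols, each array used 8 µg of total RNA. The 2% trimmed mean was 500 on all 5 arrays, so the values were used as deposited. Median signals were 132.2 to 141.9.

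Of 45101 probe sets 64 are controls, 34945 carry 1 gene symbol, 932 several and 9160 none in the platform annotation. Brightest probe sets with a mean of at least 88.2 (the 40th percentile) represented 12446 genes. Values were taken as log2(signal + 20) and compared in limma 3.58.1 (R 4.3.3; lmFit and eBayes with trend, two-sided, Benjamini-Hochberg over all genes). With 3 residual degrees of freedom, p-values measure only how vials of 1 clone, and 2 mice, vary. Members and lists were chosen with earlier results of these data known. All 49 members are named; array signals are given for called differences of at least 1, the DNA methyltransferases, Uhrf1, TET genes, Ezh1, Ezh2 and the remodeller and acetyltransferase with the largest difference, and those of other members were added after their values were seen. Among 154 related genes the 5 largest called differences each way are named. Of the 154, 9 had no probe set with 1 symbol and were not analysed here.

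Alternatives were quantile normalization, pseudocounts of 1 and 50, no filter or one at the 60th percentile, the mean over probe sets, leaving out _x_at and _s_at probe sets, eBayes without trend, a block for the replicate number, and leaving out each array. The mean over probe sets takes all probe sets of a gene, also those below the filter level. Figures: matplotlib 3.10.9, Python 3.11.15.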

Additional observations from a re-analysis of the deposited data

How the results depend on the processing

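The calls that held under all 14 alternatives were those of 7 of the 20 called genes: Hdac1, Hdac4, Hdac7, Kat2b, Kdm3a, Kdm5b and Smarca4. Of these, Hdac1 and Kdm3a have 1 probe set each, so the alternatives on probe sets could not change their differences. Calls of Ezh1, Cbx8 and Kdm6b were lost only with the mean over probe sets. Over the alternatives other than leaving out an array, 7 to 11 genes were higher and 8 to 12 lower. Leaving out 1 array gave 4 to 10 higher and 7 to 11 lower genes, against 1895 to 2752 higher and 1768 to 2740 lower among all genes, and 21 to 32 and 33 to 48 among the related genes. Without a transgenic array the remaining one is assumed to vary like the clone arrays. Median differences ranged from -0.03 to 0.09 for writers, -0.22 to -0.12 for erasers and 0.13 to 0.32 for remodellers when an array was left out. The median of the writers was -0.11 with the mean over probe sets and 0.05 with the replicate block. With the mean over probe sets the differences of Rbbp4 (-0.25, adjusted p = 0.0388), Bmi1 (-0.06) and Kmt2d (-0.32) changed sign, as did that of Kdm2b without _x_at and _s_at probe sets (0.41, adjusted p = 0.0481); these use other probe sets of those genes. Among the 27 uncalled genes 13 values passed the threshold in the same direction, besides those of Rbbp4 and Kdm2b just given, and 21 changed sign without a call. Calls of Dnmt3a, Ehmt2 and Jarid2 were lost with quantile normalization, without the filter and without the trend, and that of Arid1a with the last 2 of these. The replicate block left 7 genes higher and 11 lower, ended the calls of Arid1a, Bmi1, Ehmt2 and Kmt2a, and called Dnmt3b (-0.86, adjusted p = 0.0159) and Tet3 (-1.02, adjusted p = 0.0398) lower; the third clone array has no partner in it; the numbers name vials and mice, and deviations of arrays with the same number correlated at -0.03 and -0.08 across genes, so no pairing was taken. Signals near background, as for Tet1, Tet3, Suv39h2 and Hdac9, limit what their differences show.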

Other observations

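Members of one Polycomb complex outside the main list also moved apart; those beyond the naming rule were chosen after their values were seen. Rnf2 and Ring1 encode alternative ubiquitin ligase subunits of PRC1. Rnf2 gave 1100.2, 809.5 and 845.5 in clone and 3095 and 2892 in transgenic cells (-1.70, limma adjusted p = 3.77e-05), whereas Ring1 gave 751.5, 796 and 814 in clone and 568 and 473.5 in transgenic cells (0.58, adjusted p = 0.00628). Of the Pcgf subunits that define variant complexes, Pcgf5 (-2.39) and Pcgf3 (-1.04, adjusted p = 0.00066) were lower, Pcgf1 was higher (0.42, adjusted p = 0.0251), and Pcgf2 and Pcgf6 were not called. Among PRC2 partners, Rbbp7 (0.88), Aebp2 (0.67) and Phf19 (0.68) were higher and Mtf2 was lower (-0.49), with adjusted p-values of at most 0.00681. In the wider list 9 of 16 histone demethylase genes were lower and 2 higher in clone, and 10 of 20 deacetylases and corepressors were lower and 5 higher, against 21.7% lower and 22.0% higher of all genes tested. The 9 include the Y-linked Kdm5d and Uty. The related histone methyltransferases had 11 higher and 10 lower of 29, and the related Polycomb genes 6 higher and 6 lower of 21. Among related acetyltransferases 3 were higher and 3 lower of 15, and among related remodellers 5 were higher and 9 lower of 30. Related DNA methylation genes had 2 higher and 3 lower of 10.

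DNA methylation readers and NuRD genes likewise went both ways. Mbd2, a methyl-CpG binding NuRD subunit, was higher in clone (0.79, adjusted p = 2e-04), as was the ATPase gene Chd3 (0.60, adjusted p = 0.00265). Mta2 (-0.60, adjusted p = 0.000806) and Gatad2a (-0.61, adjusted p = 0.00174) were lower. Hells, a remodeller linked to DNA methylation in dividing cells, was lower in clone (-0.96, adjusted p = 0.00585) at 1255, 733.5 and 1175 against 2100.3 and 1947 in transgenic cells, also with its lowest clone value on the second array.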
